A study of Mus musculus with 12 samples.

Results

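The 10 renal claudins Cldn1, Cldn2, Cldn3, Cldn4, Cldn7, Cldn8, Cldn10, Cldn14, Cldn16 and Cldn19 were followed through RNA sequencing libraries of sorted mouse kidney cells. They were taken by gene symbol from a table of 23378 genes, which held 18 claudins in all, and no measured value entered the rule. All 10 passed the filter on low counts that left 14180 genes for testing. The cells came from kidney cortex of C57BL/6 mice of the nNosCreERT2-mTmG model, in which a Cre recombinase made from the neuronal nitric oxide synthase gene (Nos1) switches a membrane reporter from red tdTomato to green GFP. Cells sorted for green fluorescence are the macula densa cells, the salt-sensing plaque of the distal tubule beside the glomerulus. Red cells of the highest intensity served as control cells, which the labels take to stand for distal tubule and collecting duct epithelium. Mice of both arms carried the same alleles and received either control diet or a low salt diet with enalapril, an inhibitor of angiotensin-converting enzyme, at 150 mg/L in the drinking water for 14 days. Each diet gave 2 macula densa libraries and 4 control-cell libraries. Any cell with an active Nos1 gene could turn green in this model, and the labels give neither the ages of the mice nor the number behind a library. No label says that the libraries of a group came from separate mice, so p-values measure the spread between libraries, which may be technical. Of the numbers in the library descriptions, 4 are each shared by 1 macula densa and 1 control-cell library. They may stand for mice, but no label says what they mark.

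Claudins are the membrane proteins whose strands close the gap between neighbouring epithelial cells at the tight junction and set which ions pass between the cells. In the thick ascending limb, claudin-16 and claudin-19 are needed for the reabsorption of calcium and magnesium between cells, claudin-10b forms a sodium pore, and claudin-14 restrains the divalent cation route under the control of the calcium-sensing receptor. In the collecting duct, claudin-4 and claudin-8 work together in a chloride route and claudin-7 takes part in the handling of sodium and chloride. Claudin-2 is the cation and water pore of the proximal tubule, claudin-3 tightens distal segments, and claudin-1 marks the parietal cells of Bowman's capsule.

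Total counts per library ranged from 4259034 to 14856540, of which nuclear protein-coding genes held 781241 to 2331458 and the 10 claudins together 192 to 1141. The ribosomal RNA-associated gene Gm42418 took 53.5% to 65.0% of the totals. Expression is given as CPM in edgeR's definition, the count relative to the library total after scaling with trimmed means of M values, and 3 counts corresponded to 0.231 to 0.734 CPM. Nos1 was at 100 to 232 CPM in macula densa libraries and at 0.109 to 0.735 CPM in control cells. The control-cell libraries were not alike: summed podocyte markers ran from 42.4 to 1288 CPM and summed endothelial markers from 41.0 to 1454 CPM, against 18.4 to 146 and 13.3 to 161 CPM in macula densa libraries. Each of the 6 markers of either list had counts in every library but macula densa low-salt replicate 2, where 3 podocyte markers were at 0. Control-diet replicate 4 and low-salt replicates 1 and 3 of the control cells were the 3 lowest in both lists, and claudin results are given below without these 3 or without the other 5 where that matters. In bulk libraries, fewer cells of a type and less RNA per cell cannot be told apart.

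Promoter windows from RefSeq (GRCm38.p6, 250 bases before to 50 after the start) are shown for the claudins on which the cell and diet comparisons turn, the thick ascending limb genes Cldn10 and Cldn16 and the collecting duct gene Cldn4. Cldn10 has a pair of annotated starts, at chr14:118787621-118787920 and chr14:118854700-118854999 on the plus strand. The window of Cldn16 lies at chr16:26462885-26463184 on the plus strand and that of Cldn4 at chr5:134946885-134947184 on the minus strand.
Cldn10 upstream start: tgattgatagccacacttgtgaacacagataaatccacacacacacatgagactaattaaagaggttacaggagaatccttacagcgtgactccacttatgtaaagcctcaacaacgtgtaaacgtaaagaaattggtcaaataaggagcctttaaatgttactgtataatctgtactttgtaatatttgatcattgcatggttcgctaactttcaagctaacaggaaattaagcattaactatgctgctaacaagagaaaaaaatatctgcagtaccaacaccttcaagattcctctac
Cldn10 downstream start: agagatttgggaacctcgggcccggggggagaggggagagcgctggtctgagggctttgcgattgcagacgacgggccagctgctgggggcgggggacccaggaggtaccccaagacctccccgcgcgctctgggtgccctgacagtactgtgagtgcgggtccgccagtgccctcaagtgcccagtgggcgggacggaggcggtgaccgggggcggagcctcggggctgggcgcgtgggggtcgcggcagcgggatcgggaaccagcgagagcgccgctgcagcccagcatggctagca
Cldn16: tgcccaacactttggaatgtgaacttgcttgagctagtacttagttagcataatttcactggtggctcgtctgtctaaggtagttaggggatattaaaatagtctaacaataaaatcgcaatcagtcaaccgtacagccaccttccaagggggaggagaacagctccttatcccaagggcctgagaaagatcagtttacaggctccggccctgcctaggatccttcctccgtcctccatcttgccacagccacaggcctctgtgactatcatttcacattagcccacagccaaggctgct
Cldn4: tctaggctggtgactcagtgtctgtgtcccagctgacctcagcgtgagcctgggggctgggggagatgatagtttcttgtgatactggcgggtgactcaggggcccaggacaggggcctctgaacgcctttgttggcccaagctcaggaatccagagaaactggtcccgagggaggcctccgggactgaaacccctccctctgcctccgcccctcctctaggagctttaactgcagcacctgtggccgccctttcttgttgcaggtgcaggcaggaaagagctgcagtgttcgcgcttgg
The Cldn10 windows differ widely in composition. The upstream one has 36% G and C and 4 CpG, and the downstream one 72% and 27. The windows of Cldn16 (48.7%, 5 CpG) and Cldn4 (61%, 9 CpG) lie nearer the median of 32544 mouse promoter windows, which is 53% with 7 CpG. The letters searched on both strands were TATAAA (the TATA box), AACNGGTT (grainyhead factors) and TCAAGGTCA (estrogen-related receptors), held by 13.6%, 2.09% and 0.412% of the windows. None of these letters was found in the 4 windows printed, which are therefore in lower case throughout. The counts sum all Cldn10 transcripts, so the values below do not tell the starts apart.

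The thick ascending limb claudins Cldn10 and Cldn16 were higher in macula densa cells than in control cells, whereas Cldn19 missed the threshold in this comparison and Cldn14 had at most 14 counts in a library. Averaged over both diets, 2 of the 10 claudins passed the edgeR threshold, Cldn10 and Cldn16, both higher, beside 21.3% of all genes tested in either direction and 7.48% in that direction. All 3 collecting duct claudins missed the threshold. The median log2 difference was 1.03 over the 4 thick ascending limb claudins and that of Cldn10, 1.91, with Cldn14 left out. That of the collecting duct claudins was that of Cldn8, -0.23, against -0.06 over all genes. Scaling by library totals alone moved the median of all genes from -0.06 to 0.14 in this comparison. DESeq2 called 3 claudins, Cldn4 lower in addition to the same 2, beside 6.17% of genes called higher and 13.5% lower by that tool.

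**Figure D1:**
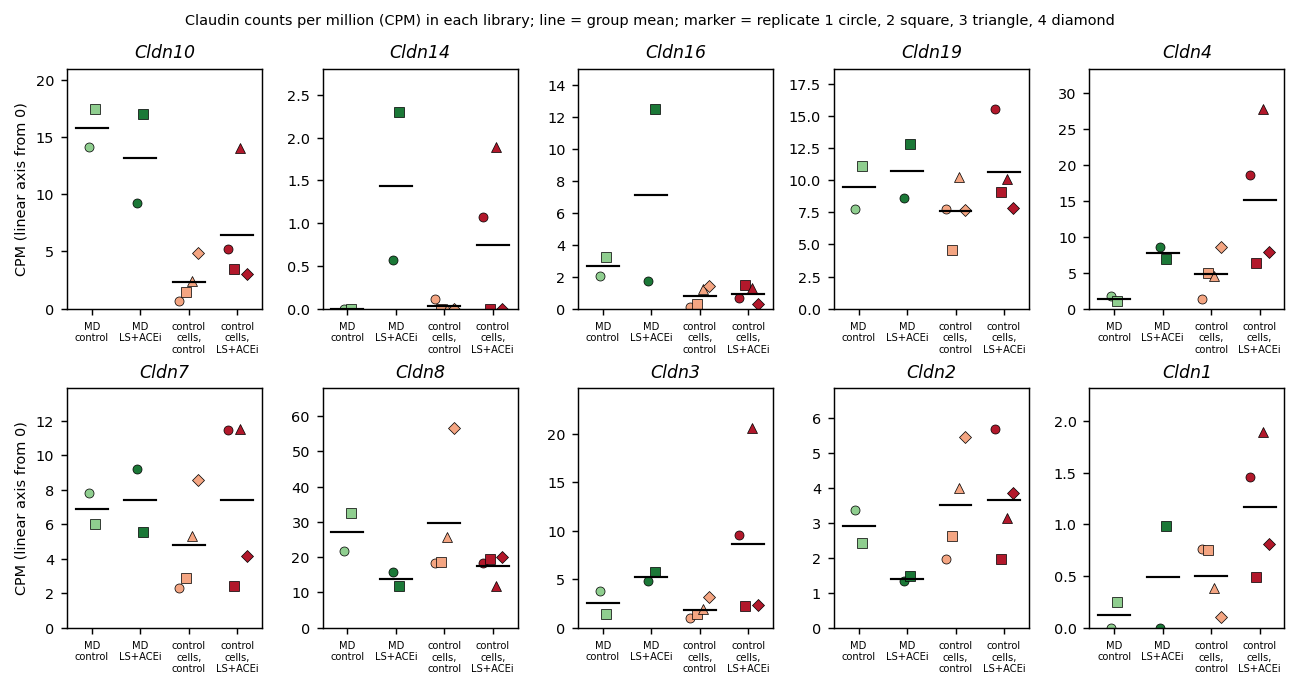
Expression of each of the 10 claudins in the 12 libraries (points, CPM on a linear axis from 0, one panel per gene; lines, group means; MD, macula densa; LS+ACEi, low salt plus enalapril). Cldn16 lies between 1.72 and 12.5 CPM in the macula densa libraries, above every control-cell library, whereas the Cldn8 values of the cell populations overlap.

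Cldn10 (chromosome 14, 118787908 to 118875489, plus strand), whose 10b isoform is the sodium pore, was at 14.2 and 17.4 CPM in macula densa cells on control diet and at 9.20 and 17.1 CPM on low salt plus enalapril. In control cells it was at 0.656, 1.41, 2.38 and 4.86 CPM on control diet. The low-salt control cells had 5.23, 3.43, 14.1 and 3.05 CPM. On control diet the cell populations did not overlap for Cldn10 and Cldn16, 2 of the 10 claudins beside 31.9% of all genes, while on low salt plus enalapril control-cell replicate 3 lay between the macula densa libraries. The log2 difference averaged over both diets was 1.91 (SE 0.46, edgeR adjusted p = 0.0122), a 3.75-fold higher level. On control diet alone it was 2.76 (SE 0.65, adjusted p = 0.0271 in edgeR), the single claudin called there, against 6.61% of all genes in either direction, and with low salt plus enalapril it was 1.06 (SE 0.65, adjusted p = 0.333 in edgeR). Without the 5 control-cell libraries richest in podocyte and endothelial markers the averaged difference was 1.10 (edgeR adjusted p = 0.0898) and that on control diet 1.69 (0.181). Without the other 3, that on low salt plus enalapril passed (2.06, edgeR adjusted p = 0.0113). Summed markers of the thick ascending limb stood at 2643 to 4492 CPM in macula densa libraries and at 229 to 1753 CPM in control cells. Slc12a1, which is also a macula densa marker, was part of this sum. It was at 1769 to 2026 CPM in macula densa libraries and at 41.8 to 430 CPM in control cells. Averaged over both diets, 8 of the 8 markers were higher in macula densa cells, 4 past the edgeR threshold, beside 7.48% of all genes. On low salt plus enalapril the marker Umod overlapped, at 109 to 165 CPM against 35.4 to 418 CPM in control cells. The part of these markers in the result was not tested. The Cldn10 counts also hold the 10a isoform, an anion pore of the proximal tubule. Summed proximal tubule markers ran higher in macula densa libraries too (37.7 to 197 CPM against 9.45 to 83.1 CPM), and their part was likewise not tested. The averaged difference also missed the threshold without macula densa control-diet replicate 2 (edgeR adjusted p = 0.0546) or low-salt replicate 2 (0.0762). The control-diet call was lost when control-cell replicate 1, 2 or 3 was left out (edgeR adjusted p = 0.0542, 0.0783 and 0.0725), or macula densa replicate 1 or 2 (0.100 and 0.188). Without control-cell replicate 4 that difference was 3.38.

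Cldn16 (chromosome 16, 26463135 to 26482765, plus strand), a partner of claudin-19 in the divalent cation route, was at 2.05 and 3.26 CPM in macula densa cells on control diet and at 1.72 and 12.5 CPM on low salt plus enalapril. Control cells had 0.109, 0.282, 1.24 and 1.45 CPM on control diet. With low salt and enalapril they had 0.692, 1.47, 1.26 and 0.305 CPM. Each macula densa library lay above each control-cell library, a separation found in this direction in 4.31% of genes tested, and Cldn16 was the one claudin that showed it across both diets. The control-cell values rest on 1 to 14 counts a library and the macula densa values on 9 to 76. Macula densa low-salt replicate 2 stood well above the other 3. The averaged log2 difference was 2.41 (SE 0.60, edgeR adjusted p = 0.0149), or 5.33-fold. It was 1.38 and missed the threshold without that library (edgeR adjusted p = 0.205). It also missed the threshold without macula densa control-diet replicate 2 (0.0678) and without the 5 control-cell libraries richest in podocyte and endothelial markers (1.91, adjusted p = 0.107). Within single diets it was 1.77 (SE 0.85, edgeR adjusted p = 0.225) on control diet and 3.06 (SE 0.86, adjusted p = 0.0517) on low salt plus enalapril. The latter passed without control-diet control-cell replicate 1 (edgeR adjusted p = 0.0416) or 4 (0.0283), or without macula densa low-salt replicate 1 (3.82, 0.0357), where the high library alone stands for its group and is assumed to vary like the others. Without that high library, macula densa low-salt replicate 2, it was 0.96 (edgeR adjusted p = 0.675). No claudin passed on the latter diet in edgeR, beside 7.27% of all genes. There 2 claudins had an unadjusted p under 0.05, beside 25.3% of genes, and DESeq2 called 1, Cldn16.

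Cldn19 (chromosome 4, 119255414 to 119262438, plus strand), the partner of claudin-16, did not follow Cldn16. Macula densa cells had 7.80 and 11.1 CPM on control diet and 8.62 and 12.8 CPM on low salt plus enalapril. Control cells had 7.76, 4.60, 10.3 and 7.65 CPM on control diet, and 15.5, 9.06, 10.1 and 7.83 CPM on the other. The groups overlapped throughout, and the averaged log2 difference was 0.16 (SE 0.25, edgeR adjusted p = 0.695). One exon of Cldn19 overlaps Gm12927 on the opposite strand, and no source used here says whether strand entered the counting. Per length of exon sequence, the level of Cldn16 relative to Cldn19 was 0.956 and 1.07 in macula densa cells on control diet and 0.727 and 3.54 on low salt plus enalapril. In control cells it ran from 0.0512 to 0.688, below all 4 macula densa values. This ratio was computed with the values in view and was not tested.

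Cldn14 (chromosome 16, 93919031 to 94008837, minus strand), the inhibitor of the claudin-16 route, was close to the limit of detection. It had 0 counts in both macula densa control-diet libraries and 3 and 14 counts on low salt plus enalapril, or 0.575 and 2.30 CPM. Against the level of 3 counts per library, the low-salt mean was at least 5.2-fold higher, a bound that rests on replicate 2, since replicate 1 was itself at 3 counts. In control cells a single count was found on control diet, in replicate 1 (0.109 CPM). On low salt plus enalapril, replicates 1 and 3 had 14 and 9 counts (1.08 and 1.89 CPM) and the other two had none. Those replicates belong to the 3 control-cell libraries low in podocyte and endothelial markers, and the part of these markers in the result was not tested.

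Cldn8 (chromosome 16, 88560828 to 88563183, minus strand), the collecting duct claudin that recruits claudin-4, was at 21.9 and 32.6 CPM in macula densa cells on control diet and at 15.9 and 11.8 CPM on low salt plus enalapril. Control cells had 18.4, 18.7, 25.6 and 56.6 CPM on control diet. The low-salt control cells had 18.4, 19.6, 11.97 and 19.9 CPM. Control-cell replicate 4 on control diet stood above all other libraries, the populations overlapped, and the averaged log2 difference was -0.23 (SE 0.31, edgeR adjusted p = 0.635). Between the populations, the markers of collecting duct principal cells did not run with Cldn8. Their sum was 11.9 to 44.8 CPM in macula densa libraries and 114 to 931 CPM in control cells, and 9 of the 9 principal-cell markers passed as lower in macula densa cells, beside 13.9% of all genes in that direction. Aqp2, the water channel of principal cells, was detected in each macula densa library, at 1.53 to 9.75 CPM. Summed markers of the distal convoluted and connecting tubule overlapped, as Cldn8 did. They were at 75.1 to 170 CPM in macula densa libraries and 69.1 to 641 CPM in control cells. Of these 6 markers, 0 passed the edgeR threshold between cells, beside 21.3% of all genes. Within control cells on control diet, the summed principal-cell markers were 144, 331, 483 and 931 CPM in replicates 1, 2, 3 and 4, the order of Cldn8. This order was not particular to them. The sum of the 6 markers above (81.2, 114, 176 and 641 CPM) rose likewise. So did that of the thick ascending limb (229, 333, 1092 and 1753 CPM), but not that of the proximal tubule (38.7, 45.0, 83.1 and 34.1 CPM). On low salt plus enalapril, control-cell replicate 3 was lowest in Cldn8 and in the principal-cell sum. The sum of the 6 markers was lowest there too. Whether the markers and Cldn8 differ in the contrast between populations was not tested.

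Cldn7 (chromosome 11, 69964779 to 69967885, plus strand) also overlapped between the populations, at 7.80 and 6.03 CPM in macula densa cells on control diet and 9.20 and 5.58 CPM on low salt plus enalapril. Control cells had 2.30, 2.91, 5.33 and 8.57 CPM on control diet and 11.5, 2.45, 11.6 and 4.17 CPM on low salt plus enalapril. Within the control cells the 3 highest values were those of the 3 libraries low in podocyte and endothelial markers. The averaged log2 difference of Cldn7 was 0.25 (SE 0.43, edgeR adjusted p = 0.725). It was 1.04 (edgeR adjusted p = 0.0255) without those 3 libraries, where 12.5% of genes were called higher, and -0.49 (0.436) without the other 5, so its sign turned with the choice of control cells.

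Cldn4 (chromosome 5, 134945119 to 134946934, minus strand), the chloride-route partner of claudin-8, was at 1.74 and 1.06 CPM in macula densa cells on control diet and at 8.62 and 6.89 CPM on low salt plus enalapril. In control cells it was at 1.31, 4.98, 4.57 and 8.57 CPM on control diet. It reached 18.6, 6.37, 27.7 and 7.83 CPM in the low-salt control cells, highest in replicates 1 and 3. Macula densa and control cells overlapped on both diets. The averaged log2 difference was -1.38 (SE 0.50, edgeR adjusted p = 0.0675), with -1.80 (SE 0.74, adjusted p = 0.162) on control diet and -0.96 (SE 0.67, adjusted p = 0.393) on low salt plus enalapril. DESeq2 placed the averaged difference past the threshold (adjusted p = 0.0303), as did edgeR without the 5 control-cell libraries richest in podocyte and endothelial markers (-2.10, adjusted p = 0.00026), without control-diet control-cell replicate 1 (0.0320) or without low-salt control-cell replicate 2 (0.0493). Without those 5 the differences on single diets also passed (control diet, -2.63, edgeR adjusted p = 0.0042; low salt plus enalapril, -1.57, 0.0160). On control diet that leaves a single control-cell library, replicate 4, which holds the highest Cldn4 value of its group and is assumed to vary like the other groups. Without the 3 control-cell libraries lowest in these markers the averaged difference was -0.63 (edgeR adjusted p = 0.224), and that on low salt plus enalapril turned to 0.12 (0.902).

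**Figure D2:**
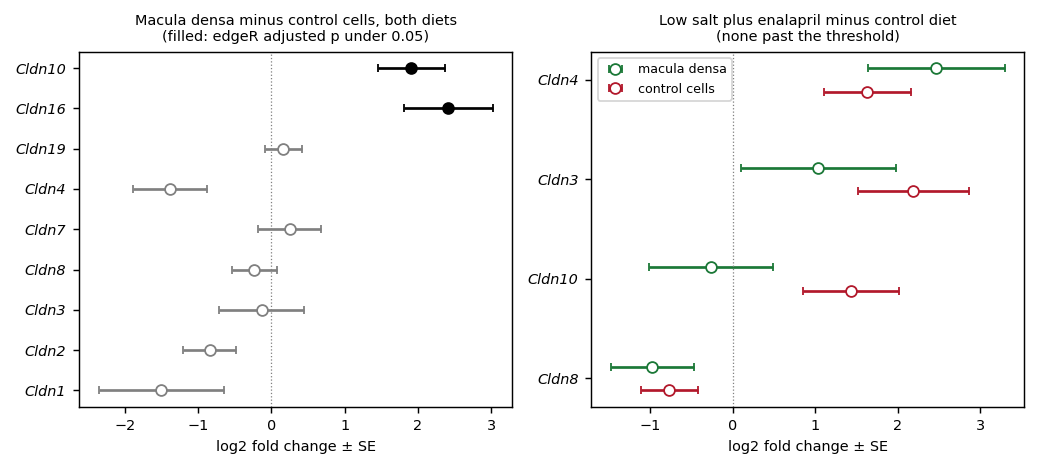
Log2 differences (points) with standard errors (bars) from the edgeR fit, on the left between cell populations averaged over both diets for 9 claudins and on the right between diets for Cldn4, Cldn3, Cldn10 and Cldn8. Filled points mark Cldn10 at 1.91 and Cldn16 at 2.41, the claudins past the threshold, and Cldn4 lies at -1.38 between cells and at 2.47 and 1.63 between diets.

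**Figure D3:**
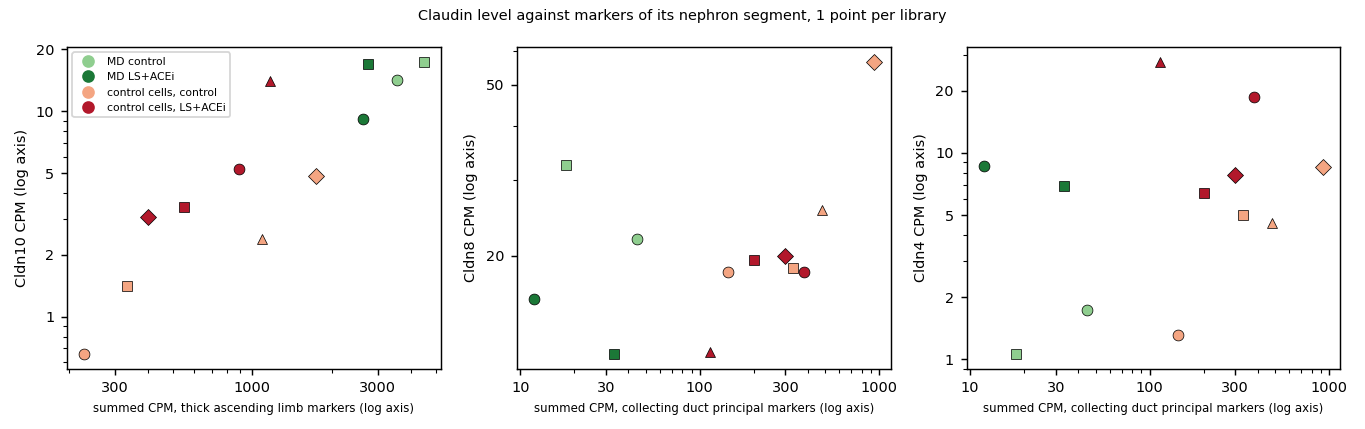
Cldn10 against the summed markers of the thick ascending limb, and Cldn8 and Cldn4 against those of collecting duct principal cells (CPM, log axes, one point per library, coloured by group). Macula densa libraries lie at 2643 to 4492 CPM of the former markers and at 11.9 to 44.8 CPM of the latter, where Cldn8 is still at 11.8 to 32.6 CPM. The former markers include Slc12a1, which is also a macula densa marker.

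Cldn3 (chromosome 5, 134986214 to 134987472, plus strand), next to Cldn4 on the chromosome, was at 3.80 and 1.38 CPM in macula densa cells on control diet and 4.79 and 5.74 CPM on low salt plus enalapril. Control cells had 0.984, 1.41, 1.90 and 3.20 CPM on control diet. The low-salt control cells had 9.61, 2.20, 20.6 and 2.34 CPM, with the same replicates 1 and 3 high as for Cldn4. The averaged log2 difference of Cldn3 was -0.13 (SE 0.58, edgeR adjusted p = 0.906), and it was 0.13 when libraries were scaled by their totals alone. The last bases of Cldn3 overlap an exon of Wbscr25 on the opposite strand, which had 14 counts over all libraries against 444 for Cldn3.

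Cldn2 (chromosome X, 139800828 to 139811386, plus strand), the proximal tubule pore, lay between 1.34 and 5.69 CPM throughout. Macula densa cells had 3.39 and 2.44 CPM on control diet and 1.34 and 1.48 CPM on low salt plus enalapril. Control cells ran from 1.97 to 5.48 CPM on control diet and from 1.96 to 5.69 CPM on low salt plus enalapril, so that the cell populations overlapped on the former and not on the latter. Cldn2 and Cldn16 were the 2 claudins without overlap on low salt plus enalapril, where 34.8% of all genes had none. The averaged log2 difference was -0.84 (SE 0.36, edgeR adjusted p = 0.113), and it was -1.41 (SE 0.54, adjusted p = 0.127) on low salt plus enalapril. Summed markers of the proximal tubule were 37.7 to 197 CPM in macula densa libraries and 9.45 to 83.1 CPM in control cells. Those of the thin limb, to which Cldn2 was also assigned, were 24.5 to 71.0 CPM and 78.3 to 734 CPM. Of these 4 thin limb markers, 1 went the other way, higher in macula densa cells. Slc14a2 alone, at 32.3 to 680 CPM, was the largest part of the thin limb sum in each control-cell library. The part of either set in the result was not tested.

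Cldn1 (chromosome 16, 26356642 to 26371841, minus strand), a neighbour of Cldn16, stayed below 2 CPM in each library. In macula densa cells it had 0 counts in replicate 1 of each diet and 0.244 and 0.984 CPM in the replicates numbered 2. Control cells had 0.103 to 0.765 CPM on control diet and 0.490 to 1.89 CPM on low salt plus enalapril. The averaged log2 difference was -1.50 (SE 0.85, edgeR adjusted p = 0.239).

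To set genes of different length side by side, CPM was divided by the length of exon sequence, and each claudin was expressed as its share of the sum over the 10. Thick ascending limb claudins made up 33.1% and 38.4% of this sum in macula densa cells on control diet and 26.4% and 55.8% on low salt plus enalapril. In control cells they made up 16.5%, 11.6%, 18.8% and 11.6% on control diet. The low-salt control cells had 16.8%, 23.2%, 18.2% and 15.3%. All 4 macula densa libraries thus lay above all 8 control-cell libraries, including the 3 that are low in podocyte and endothelial markers. Group means were 35.8% ± 3.76 (SD, n = 2) and 41.1% ± 20.8 (n = 2) in macula densa cells and 14.6% ± 3.63 (n = 4) and 18.4% ± 3.45 (n = 4) in control cells. Collecting duct claudins held 52.1% and 55.6% in macula densa cells on control diet, then 58.5% and 30.6% on low salt plus enalapril. They held 69.2% to 78.4% and 48.9% to 69.8% in control cells on the respective diets. The lowest of these control-cell values was that of low-salt replicate 3.

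**Figure D4:**
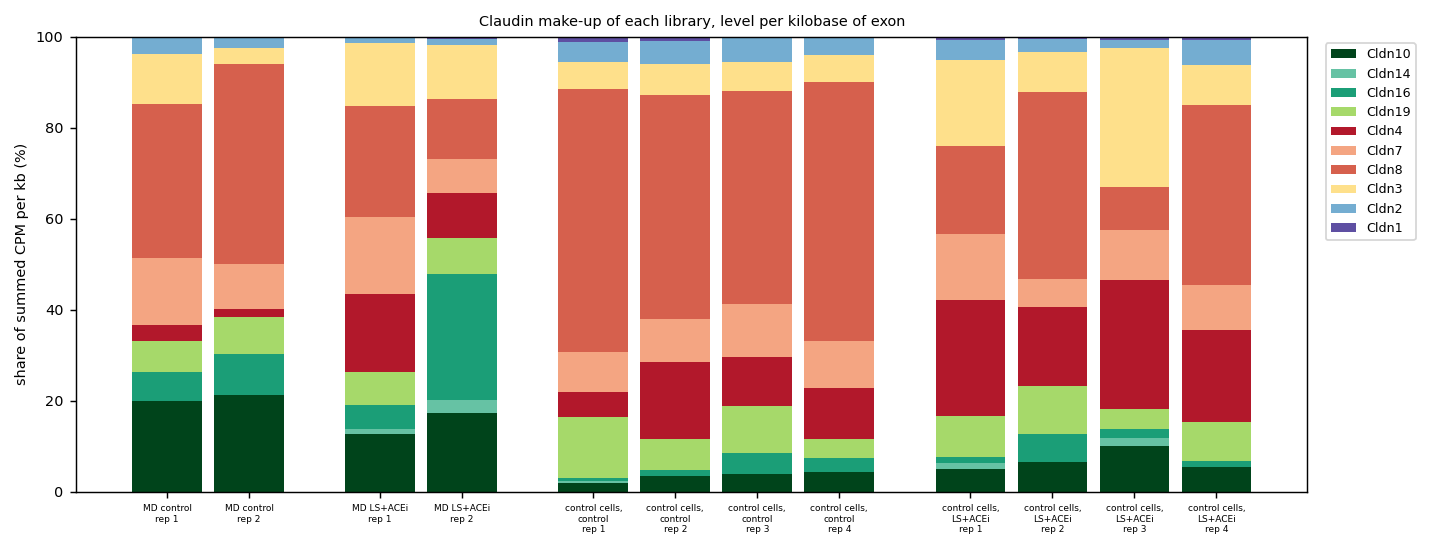
Share of each claudin in the summed CPM per kilobase of the 10 claudins (stacked bars, percent, one bar per library). The thick ascending limb claudins take 26.4% to 55.8% of the bar in macula densa libraries and 11.6% to 23.2% in control-cell libraries.

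The same contrast on a log scale was the median log2 CPM of the 4 thick ascending limb claudins minus that of the 3 collecting duct claudins. Since gene lengths differ, its differences between libraries are read and its sign is not. It was -0.91 and 0.01 in macula densa cells on control diet, and -1.18 and 0.85 on low salt plus enalapril. In control cells it was -2.21, -2.51, -1.51 and -1.59 on control diet and -2.80, -1.40, -1.38 and -2.61 on low salt plus enalapril. The macula densa values were above all control-cell values, with means of -0.45 ± 0.65 (SD, n = 2) and -0.16 ± 1.44 (n = 2) against -1.95 ± 0.48 (n = 4) and -2.05 ± 0.76 (n = 4). The diets overlapped within each population. With Cldn3 counted among the collecting duct claudins, the populations were not fully separated. Low-salt control-cell replicate 2 then lay above macula densa low-salt replicate 1. No test was made of this score, since its members were chosen.

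**Figure D5:**
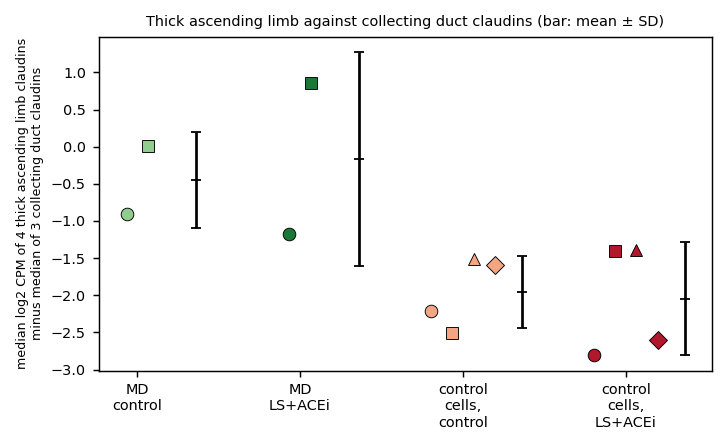
Median log2 CPM of the thick ascending limb claudins minus that of the collecting duct claudins (points, one per library; bars, group mean ± SD). The macula densa libraries lie between -1.18 and 0.85 and the control-cell libraries between -2.80 and -1.38.

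Per length, Cldn8 was the most abundant claudin on control diet in both populations. In control cells it stood at 12.7 ± 7.71 CPM per kilobase (SD, n = 4), 52.7% of the sum, and its range did not overlap that of Cldn4, the next in order. Cldn4, Cldn7, Cldn19, Cldn3, Cldn2, Cldn10 and Cldn16 followed, each overlapping its neighbour. In macula densa cells on control diet, Cldn8 stood at 11.6 ± 3.22 CPM per kilobase (n = 2), 38.9% of the sum. Cldn10 came next at 6.10 ± 0.89, and neither overlapped its neighbour in the order. Cldn10 was thus the second claudin of macula densa cells and the seventh of control cells on this diet. On low salt plus enalapril the leading claudins overlapped in both populations. These were Cldn16 (6.05 ± 6.48), Cldn8 (5.88) and Cldn10 (5.07) in macula densa cells, and Cldn4 (8.33), Cldn8 (7.41) and Cldn3 (6.90) in control cells.

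Low salt plus enalapril changed no claudin past the edgeR threshold in macula densa cells, where 0% of all genes passed. At an unadjusted p under 0.05 there were 2, Cldn4 and Cldn14, beside 11.2% of genes, and DESeq2 called 0. Cldn4 was higher in both low-salt macula densa libraries (log2 difference 2.47, SE 0.83, edgeR adjusted p = 0.325) and Cldn8 lower in both (-0.98, SE 0.50, adjusted p = 0.494), with no overlap between the diets. Cldn3 (1.04, SE 0.94, adjusted p = 0.708) also did not overlap, with both low-salt values above both control-diet values. With 2 libraries against 2, 40.6% of all genes tested showed no overlap, as did 5 of the 10 claudins (Cldn2, Cldn3, Cldn4, Cldn8 and Cldn14). Cldn10 (-0.26, SE 0.75, adjusted p = 0.930) and Cldn16 (1.42, SE 0.95, adjusted p = 0.607) overlapped between diets.

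In control cells no claudin passed the edgeR threshold either, where 1 gene in all did (0.00705%). An unadjusted p under 0.05 was found for 5 claudins, Cldn3, Cldn4, Cldn8, Cldn10 and Cldn14, beside 6.45% of genes, and DESeq2 called 0. Log2 differences were 2.19 (SE 0.67, edgeR adjusted p = 0.570) for Cldn3, 1.63 (SE 0.53, 0.616) for Cldn4, 1.43 (SE 0.59, 0.727) for Cldn10 and -0.77 (SE 0.35, 0.770) for Cldn8. None of the 10 claudins was free of overlap between diets, beside 4.2% of genes that were. The highest values of Cldn3, Cldn4 and Cldn10 were those of low-salt replicate 3, one of the 3 libraries with little podocyte and endothelial marker expression. Among those 3 alone, with the other 5 left out, Cldn8 was lower on low salt plus enalapril (-1.90, edgeR adjusted p = 0.0170), in a contrast of 2 libraries with 1, which is assumed to vary like the other groups, and 0.743% of genes were called lower there. In the same fit Cldn4 passed in macula densa cells (2.46, edgeR adjusted p = 0.0131), beside 0.295% of genes called higher. With the 3 left out instead, the control-cell difference of Cldn8 was -0.0829, that of Cldn3 0.66, that of Cldn4 0.97 and that of Cldn10 1.08 (edgeR adjusted p = 1.0 for each).

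The diet effects were also compared between the populations. No claudin passed in edgeR, where 0% of all genes did. At an unadjusted p under 0.05 there were 0 claudins, beside 7.03% of genes, and DESeq2 called 0. The effect on Cldn10 differed by -1.70 (SE 0.95, edgeR adjusted p = 0.762) and that on Cldn4 by 0.84 (SE 0.96, adjusted p = 0.889), macula densa minus control cells.

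Of the 8 other claudins in the table, 4 had enough counts to be tested, and 2 of them were lower in macula densa cells, beside 13.9% of all genes. DESeq2 tested 5 and called Cldn5 and Cldn15 lower and Cldn6 higher (2.63, adjusted p = 0.0265), the last from at most 12 counts a library. Cldn5, the claudin of endothelium, was at 0.583 CPM in macula densa and 6.11 CPM in control cells (log2 difference -3.81, edgeR adjusted p = 0.0421), and without the 5 control-cell libraries richest in endothelial and podocyte markers the difference was -1.09 (0.783). Its call was also lost without any single one of control-diet control-cell replicates 1, 2 and 3, low-salt control-cell replicates 2 and 4, macula densa control-diet replicate 2 and both macula densa low-salt libraries (edgeR adjusted p = 0.0592 to 0.155). Cldn15, a cation pore known from the intestine, was at 0.263 and 2.78 CPM (-3.67, edgeR adjusted p = 0.00781) and did not overlap between the populations. Its macula densa values are near the limit of detection, from 0 to 6 counts a library, against 6 to 49 in control cells. The share of all genes lower without overlap is not given here, so this separation has no background to be read against. Without macula densa low-salt replicate 1 the difference of Cldn15 was -5.10. Without the 5 control-cell libraries Cldn15 fell below the filter on low counts and was not tested. Cldn12 and Cldn34c1 missed the threshold, and Cldn34c1 belongs to a family of similar genes whose counts are uncertain.

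Of 26 other components of the tight junction, 1 was higher and 10 were lower in macula densa cells averaged over both diets, and 15 missed the edgeR threshold, beside 7.48% and 13.9% of all genes. Their median log2 difference was -0.27 beside -0.06 for all genes. Ildr1, an angulin of tricellular junctions, was the higher one, at 21.1 against 7.91 CPM (1.44, edgeR adjusted p = 0.0228), a call lost without any one of the 4 macula densa libraries (0.0590 to 0.0897). The scaffold Tjp1 (-1.48, adjusted p = 0.0119) and the adhesion proteins F11r (-1.09, 0.000362) and Jam2 (-2.67, 0.00625) were among the lower ones. The Tjp1 call was lost without replicate 2 of macula densa cells on control diet (edgeR adjusted p = 0.0610) or low salt plus enalapril (0.0564). Without the 5 control-cell libraries rich in podocyte and endothelial markers, 0 were higher and 4 lower, F11r among them, and Tjp1 (edgeR adjusted p = 0.189), Jam2 (0.267) and Ildr1 (0.0908) missed the threshold. In that fit 2.99% of all genes were higher and 4.37% lower. Without the other 3, 6 were higher and 10 lower, beside 12.5% and 19% of all genes. No component passed in either diet comparison in edgeR or DESeq2.

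A list of 13 genes held claudin regulators and also Trpv5, which is one of the distal convoluted and connecting tubule markers. Of these 13, 5 were higher in macula densa cells and none lower in edgeR (5 and 1 in DESeq2). In edgeR 7.48% and 13.9% of all genes were, and the median log2 difference of the 13 was 0.47. Casr, the calcium-sensing receptor that governs Cldn14, was at 167 CPM in macula densa and 25.4 CPM in control cells (2.73, edgeR adjusted p = 0.00144). The kinase Wnk1 (1.59, 0.000515) and the ubiquitin ligase adaptor Klhl3 (2.34, 0.000416) rose with it. Pth1r, the parathyroid hormone receptor (1.87, edgeR adjusted p = 3.7e-05), and Vdr, the vitamin D receptor (2.03, 0.000672), were higher too. None of these 5 calls was lost by leaving out a single library. In each of these 5 genes, already called higher, the macula densa libraries lay above all control-cell libraries, beside 4.31% of all genes tested. With either set of control-cell libraries left out, all 5 passed. In the diet comparisons no listed gene passed with all libraries in edgeR or DESeq2. Without the 5 control-cell libraries rich in podocyte and endothelial markers, the median log2 difference of the 13 between diets in control cells was -0.05. That contrast sets 2 libraries against 1, so calls of single genes there are not read. Between cells, 7 regulators were higher and none lower in the fit without the 3 libraries, beside 12.5% and 19% of all genes. In that without the 5 libraries 5 were higher and 2, Elf3 and Trpv5, were lower, beside 2.99% and 4.37%.

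Genes whose log2 CPM moved most like a claudin over the 12 libraries were ranked by the root mean square of the difference after centring each gene, among 6687 genes (6688 for Cldn16) with a mean of at least 5 CPM. These libraries differed in cell population, diet and depth. The part of these in the ranking was not tested, and no test of likeness was made. The nearest to Cldn10 were Muc1 (0.36), Tmem116, Emb, Fxyd2 and Myo3b (0.42), against a median of 1.41. The nearest to Cldn16 were Slc16a10 (0.67), Ddo, Hoxd8, Kyat1 and Tmem65 (0.72), against 1.39. Cldn8 was followed by Bola3 (0.26), Kdm1b, Tpi1, Sdhc and Cox5a (0.31), against 0.70. Genes near to Cldn4 were Krt18 (0.60), Slc4a9, Ctsd and Atp6v0d2 (0.72), against 1.37.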

How the data were processed

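The authors deposited expected counts per gene for 12 libraries. Per the submitters' processing notes, STAR 2.61 and Partek were used with the build mm10; the counting settings are not given in the sources used here. Of the deposited values, 15.0% were not whole (tolerance 1e-09) and were rounded. Gene positions matched GENCODE M21 (GRCm38) for 23351 of 23378 rows and for every claudin. The smallest row sum was 10.

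Groups came from the labels. edgeR 4.0.16 in R 4.3.3 kept genes with filterByExpr (count minimum 10, total minimum 15), scaled libraries with trimmed means of M values, and fitted 1 quasi-likelihood model over all 12 libraries with a coefficient per group. P-values were adjusted over 14180 genes (Benjamini-Hochberg, threshold 0.05). Log2 CPM used a prior count of 2, and levels per length used the union of exons. The fit was tested on simulated data. No pair of replicate libraries held the same counts within sampling noise. Alternatives were other scalings and filters, the DESeq2 1.42.0 Wald test, blocks for numbers in the labels and leaving out libraries; the 2 subsets of control cells were chosen after seeing the data. The members, the lists of partners, regulators and markers, and the genes named from them were chosen with earlier results of these data known; likeness names the 5 nearest genes. One of the 5 nearest to Cldn4 and 1 regulator are not reported here. The floor of 3 counts covers counting error only, since reads that carry no molecular identifier can be copies of 1 molecule.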

Additional observations from a re-analysis of the deposited data

Results flagged for a closer look

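Among 22 sets of 4 control-cell values, 2 had a library far from the other 3 by Dixon's criterion at the 95% level, where chance gives about 1 in 20. Cldn8 on low salt plus enalapril had a log2 CPM of 3.61 in replicate 3 and 4.22 to 4.33 in the others. Cldn14 on control diet had -1.57 in replicate 1, from a single count, and -2.13 in the other three, which had none. With the others tied, any count in a single library meets the criterion, so the rate of about 1 in 20 does not hold there.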

How the results depend on the processing

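Averaged over both diets, 2 claudins passed, and under other settings 4 (the 8 libraries that share a number in their descriptions, no block) or, leaving out each library in turn, 0 to 3. Without the 5 control-cell libraries highest in podocyte and endothelium markers, the calls of Cldn10 and Cldn16 were lost. The log2 differences there were 1.10 for Cldn10 and -2.10 for Cldn4. On control diet 1 passed, against 0 (only the groups compared), 2 (those 8 libraries, with or without the block) and 0 to 1 (each library left out). On low salt plus enalapril 0 passed in edgeR, against 1 (library totals alone, DESeq2, only the groups compared, those 8 libraries with or without the block, without the 3 control-cell libraries lowest in those markers), 2 (without the 5) and 0 to 1 (each library left out). For either diet comparison 0 passed, against 1 without the 5 and 0 to 0 with each library left out; the difference of the diet effects stayed at 0 with each library left out.

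Signs turned for Cldn3 between cells (main -0.13), to 0.13 with library totals alone, 0.44 with the replicate block from the titles, 0.86 and 0.91 in the 8 libraries with and without the replicate block, 1.03 without the 3, and from -0.60 to 0.28 with each library left out. Cldn7 turned to -0.49 without the 5, and Cldn8 to 0.0189 with the replicate block from the titles and between -0.40 and 0.0205 with each library left out. Cldn4 on low salt plus enalapril turned to 0.11 in the 8 libraries with or without the replicate block and 0.12 without the 3. With each library left out, Cldn19 ran from -0.00082 to 0.29 between cells, and for diet in macula densa cells Cldn10 ran from -0.84 to 0.0408 and Cldn16 from -0.68 to 2.15. The cause was not tested.

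The log-scale contrast of thick ascending limb and collecting duct claudins moved without Cldn14 to -1.27 and -1.04 in control cells and to 0.43 in macula densa cells on control diet, with means in place of medians to -2.58 in control cells on control diet, and with Cldn3 among the collecting duct claudins to 0.29 in macula densa cells on control diet. In that last variant low-salt control-cell replicate 2 lay above macula densa low-salt replicate 1. Leaving out each library gave -2.10 to -1.77 and -2.27 to -1.80 in control cells, and -0.91 to 0.01 and -1.18 to 0.85 in macula densa cells.

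No label says what the numbers mark. Deviations of the 4 pairs that share a description number, which may be that of a mouse, correlated at 0.23, -0.02, 0.08 and -0.04 across genes. The 2 macula densa libraries of a diet deviate as mirror images, so these values do not show whether mice were shared, and the numbers were used as a block in an alternative alone. The replicate block from the titles left the claudins called at 2, 1 and 0 in the cell comparisons and at 0 in the diet comparisons; over all genes it gave 1908, 378 and 396 calls against 3027, 938 and 1031. In the 8 libraries all genes gave 3630, 2217 and 2192 calls with the replicate block and 3876, 2333 and 2281 without. DESeq2 gave 3615, 1879 and 1757, then 61, 64 and 13 for the diet comparisons, where edgeR gave 0, 1 and 0. Only the groups compared gave 468 on control diet and 105 for diet in macula densa cells. Without the 5 there were 1099, 464 and 1012, and without the 3 there were 4386, 3123 and 2415. Each library left out gave 1680 to 3968, 122 to 2490 and 194 to 1894. Depth limits Cldn1, Cldn14 and Cldn16, which had 0 to 14 counts in many libraries.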

Other observations

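Within each library, the level of Cldn4 relative to Cldn8, per length of exon sequence, separated the diets in both populations. It was 0.104 and 0.0422 in macula densa cells on control diet and 0.703 and 0.757 on low salt plus enalapril. In control cells it was 0.0927, 0.346, 0.231 and 0.196 on control diet and 1.31, 0.422, 3.004 and 0.510 on low salt plus enalapril. The 6 low-salt libraries lay above the 6 control-diet libraries. The ratio was picked after its values were seen and was not tested, and the claudins taken singly missed the edgeR threshold for diet in the fit of all libraries. The ratio of Cldn10 to Cldn8 was 0.589 and 0.486 in macula densa cells on control diet against 0.0325 to 0.0845 in control cells, and on low salt plus enalapril 0.526 and 1.31 against 0.139 to 1.07, where replicate 3 of the control cells overlapped the macula densa libraries.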
